A study of Homo sapiens with 18 samples.

Results

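The 40 genes described here are core genes of mitosis, chosen by name for their roles in the mitotic kinases and cyclins, the spindle assembly checkpoint, the anaphase-promoting complex (APC/C), the chromosomal passenger complex, the kinetochore, the spindle, cytokinesis and chromosome structure, of 20020 protein-coding genes in the annotation. The list was chosen with earlier results of these data known. Each gene was represented, separately for each histone modification, by 1 listed interval, the one with the greatest count averaged over the 4 libraries of that modification within 2 kb of any of its transcription start sites (TSS), with no use of the difference between treatments. An interval was found for 39 of the 40 genes in H3K4me3, for 39 in H3K27ac, for 19 in H3K4me1 and for none in H3K27me3. SPC25, a subunit of the NDC80 complex of the outer kinetochore, was the gene without an H3K4me3 or H3K27ac interval.

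The libraries are Cut&Tag libraries, in which an antibody brings the transposase Tn5 to a histone modification so that the DNA around it is cut and tagged. They were made from MOLM-13, a human acute myeloid leukemia line that carries a KMT2A rearrangement, after 100 nM PR-957 (ONX-0914), an inhibitor of the immunoproteasome subunit PSMB8, or after DMSO alone, for 72 h per the labels (a legend of the study gives another time). Each of 4 modifications had 2 libraries per treatment, 16 libraries in all, and 2 IgG samples are not analysed here. All groups are the same cell line grown in the same medium, the labels do not say that replicates were separate cultures, and p-values therefore measure only the spread between these libraries, which may be technical.

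The library total, the count summed over all listed intervals, was 30070119 to 44591150 in H3K4me3, 9885836 to 14165777 in H3K27ac, 15204186 to 30584219 in H3K4me1 and 10032503 to 12047958 in H3K27me3. Listed intervals can overlap and share reads, so this total is not the sequencing depth. In H3K4me3, both PR-957 libraries (30070119 and 30454212) had smaller totals than both DMSO libraries (44591150 and 42037643), and the part of this in the differences below was not tested. The labelled cell type was checked on marker genes. H3K27ac intervals lay at 8 of 10 myeloid genes, with ELANE and FCGR1A lacking one, at 4 of 6 B cell genes and at none of 6 T cell, 6 erythroid or 6 non-blood genes. In H3K4me3, 7 of 10 myeloid genes had an interval, MPO being absent as well, and their summed CPM (the count scaled by the TMM library size) lay between 241.7 and 261.2 in the 4 libraries, the DMSO values falling inside the range of the PR-957 values. H3K4me3 intervals also lay at 3 of 6 B cell, 1 of 6 T cell, 1 of 6 erythroid and 2 of 6 non-blood genes.

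Entry into mitosis is driven by CDK1 with B-type cyclins, and exit by the APC/C, which marks cyclins and securin for destruction by the proteasome. Most mitosis genes are transcribed late in the cell cycle, and their promoters are known for the CHR element, read by the DREAM and MuvB complexes, and for CCAAT boxes, read by NF-Y. H3K4me3 and H3K27ac are found at active promoters, H3K4me1 at enhancers and promoter flanks, and H3K27me3 in chromatin silenced by Polycomb.

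The 250 bases before the start of 6 genes are shown to let the elements be read beside the chromatin values. These are the 5 genes whose H3K27ac had the smallest p-values among those with separate treatment groups, and SPC25, which had no interval. The sequences are RefSeq's on GRCh38.p14, read 5′ to 3′ along the gene's strand, with CHR letters (TTTGAA, or TTCAAA on the other strand) and CCAAT letters (CCAAT, or ATTGG on the other strand) in capitals. CENPF lies at chr1:214602945-214603194 (plus strand), MKI67 at chr10:128126424-128126673 (minus), CCNB2 at chr15:59104896-59105145 (plus), ANLN at chr7:36389612-36389861 (plus), ESPL1 at chr12:53268049-53268298 (plus) and SPC25 at chr2:168890431-168890680 (minus).
CENPF: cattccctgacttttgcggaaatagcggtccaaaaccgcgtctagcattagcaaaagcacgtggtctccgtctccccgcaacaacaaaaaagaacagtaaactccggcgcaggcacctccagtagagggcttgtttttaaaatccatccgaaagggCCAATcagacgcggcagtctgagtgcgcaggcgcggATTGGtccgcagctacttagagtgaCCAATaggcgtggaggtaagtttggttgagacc
MKI67: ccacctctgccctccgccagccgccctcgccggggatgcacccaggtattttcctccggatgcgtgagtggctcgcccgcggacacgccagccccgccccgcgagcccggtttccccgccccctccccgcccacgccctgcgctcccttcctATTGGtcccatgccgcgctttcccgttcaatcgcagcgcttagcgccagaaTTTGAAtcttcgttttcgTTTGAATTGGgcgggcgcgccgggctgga
CCNB2: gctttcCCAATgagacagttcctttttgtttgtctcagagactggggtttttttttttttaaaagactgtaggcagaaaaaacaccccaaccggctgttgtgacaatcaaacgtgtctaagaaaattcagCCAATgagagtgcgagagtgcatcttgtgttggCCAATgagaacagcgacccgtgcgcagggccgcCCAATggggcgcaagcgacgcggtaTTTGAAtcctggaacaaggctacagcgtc
ANLN: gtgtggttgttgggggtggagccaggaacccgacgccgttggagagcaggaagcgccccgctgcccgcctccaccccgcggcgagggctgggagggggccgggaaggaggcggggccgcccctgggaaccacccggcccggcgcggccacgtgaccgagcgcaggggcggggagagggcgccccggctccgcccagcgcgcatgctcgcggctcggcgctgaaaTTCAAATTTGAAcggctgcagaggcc
ESPL1: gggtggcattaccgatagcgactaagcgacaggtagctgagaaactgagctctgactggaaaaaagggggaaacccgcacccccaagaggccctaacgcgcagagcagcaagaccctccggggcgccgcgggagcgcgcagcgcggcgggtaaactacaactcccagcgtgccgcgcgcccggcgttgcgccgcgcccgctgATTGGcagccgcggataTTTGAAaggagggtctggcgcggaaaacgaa
SPC25: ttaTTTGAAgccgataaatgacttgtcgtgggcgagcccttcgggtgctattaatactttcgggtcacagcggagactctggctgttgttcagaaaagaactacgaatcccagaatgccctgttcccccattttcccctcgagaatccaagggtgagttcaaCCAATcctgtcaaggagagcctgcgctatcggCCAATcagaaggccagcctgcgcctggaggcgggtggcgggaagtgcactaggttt

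CCNB2 held 4 CCAAT matches, 3 of them at 120, 87 and 54 bases before the start and so 33 bases apart, with CHR letters 29 bases before the start. CENPF held CCAAT letters at 94, 58 and 33 bases and no CHR letters. In MKI67 the CHR letters stood at 47 and 29 bases, the second of them overlapping the CCAAT match at 24 bases, and in ANLN a pair of CHR matches on opposite strands stood side by side at 26 and 20 bases, with no CCAAT. ESPL1 had CCAAT at 48 and CHR at 31 bases. SPC25 had CCAAT at 88 and 56 bases, and its only CHR letters lay 247 bases upstream.

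RefSeq's table held a promoter for 33 of the 40 genes, 43 promoters in all, and AURKA, BIRC5, BUB3, FOXM1, TPX2, TTK and UBE2C were not matched. CHR letters were found in 21 of the 43 promoters (48.8%), against 11.0% of 21613 promoters of the same length. CCAAT letters were found in 32 (74.4%, against 33.0%), at least 2 of them in 19 (44.2%, against 10.6%), and both elements in 18 (41.9%, against 4.12%). By gene, 19 of the 33 had CHR letters, 27 had CCAAT, and CENPE, KIF2C, NDC80 and NUF2 had neither in any promoter of the table. Of the 28 CHR matches, 18 lay within 70 bases of the start. E2F letters (TTTGGCGC, TTTCCCGC or TTTCGCGC, both strands) were in 3 promoters (6.98%, against 2.98%) and forkhead letters (GTAAACA or ATAAACA) in 1 (2.33%, against 5.2%). The median GC content was 62% in these promoters and 62% in all. A match is a description of letters in this window, not of a bound site.

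In DMSO, mitosis genes ranged from low to high H3K4me3. Levels between genes are given as CPM per kb of interval. The median of the 39 genes was 4.59 CPM per kb, against 4.59 over the 12790 protein-coding genes with a tested interval, and single genes lay between the 19.2nd and the 97.0th percentile of those genes. MAD2L1, which holds the APC/C back until kinetochores are attached, had the highest level at 10.0, followed by TTK, the checkpoint kinase, at 8.81 and CDCA8, borealin of the passenger complex, at 8.13. AURKB, the kinase of that complex, had the lowest at 2.41, and ESPL1 (separase, the protease that cleaves cohesin) and UBE2C (the APC/C's ubiquitin-conjugating enzyme) followed at 2.74 and 2.85.

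H3K27ac levels in DMSO had a median of 3.78 CPM per kb, against 4.00 over 12085 genes, and lay between the 15.7th and the 96.8th percentile. CDC25C, a phosphatase that activates CDK1, MAD2L1 and CCNB2, cyclin B2, were highest at 13.8, 12.3 and 8.74. UBE2C, BUB1B (the checkpoint protein BUBR1) and BIRC5 (survivin, of the passenger complex) were lowest at 1.83, 2.28 and 2.30. Across the 39 genes, the H3K4me3 and H3K27ac levels per kb had a Pearson correlation of 0.65 and a Spearman correlation of 0.66. This is a description across genes, which share libraries, interval widths and base composition and are not independent.

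Some of these levels belong to a neighbour as much as to the named gene. The intervals spanned the canonical TSS for 36 of 39 genes in H3K4me3 and for 35 in H3K27ac, and 12 of 39 in each held the TSS of another protein-coding gene as well. CDC25C was represented through an interval that holds the TSS of FAM53C, 4167 bp from its canonical TSS in H3K4me3 and 4463 bp in H3K27ac. CDC25B was represented through one that holds the TSS of CENPB (7968 and 9064 bp) and KIF11 through one at IDE (16820 and 17870 bp). An annotated transcript of each gene starts within 2 kb of there. The intervals of CDC25C and CDC25B also hold RefSeq starts of these genes themselves, so they are shared with the neighbour. The H3K27ac interval of PTTG1 lies 1114 bp from its canonical TSS and holds the TSS of SLU7. At the canonical TSS of CDC25C, H3K27ac was 10.9 and 11.9 CPM in DMSO and 7.45 and 9.15 in PR-957, with a log2 fold change of -0.44 (SE 0.20, edgeR's adjusted p = 0.512). At the interval shared with FAM53C it was 51.2 and 55.2 CPM in DMSO and 51.7 and 51.1 in PR-957, with a log2 fold change of -0.05. The groups thus did not overlap at the canonical start and overlapped at the shared interval.

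SPC25 was the only 1 of the 40 genes without an H3K4me3 or H3K27ac interval. From its canonical TSS at chr2:168890430, the nearest listed interval was 177962 bp away in H3K4me3, 178769 bp in H3K27ac, 101311 bp in H3K4me1 and 466979 bp in H3K27me3. NDC80 and NUF2, its partners in the same complex, both had intervals in H3K4me3 and H3K27ac. Such a gap is not particular to SPC25. Of all protein-coding genes 63.9% had an H3K4me3 and 60.4% an H3K27ac interval. In the wider lists below, SKA1, KIF15, KIFC1 and E2F2 had neither. Whether the gap at SPC25 comes from the cells, from mapping or from a filter of the deposited intervals was not tested.

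The comparison of PR-957 with DMSO asks whether the chromatin of these genes differed after immunoproteasome inhibition. No interval of a mitosis gene had an adjusted p below 0.05 by edgeR's quasi-likelihood test with Benjamini-Hochberg adjustment, in H3K4me3 (0 of 39), H3K27ac (0 of 39) or H3K4me1 (0 of 19). Over all tested intervals the share called was 0.226% of H3K4me3, 0.238% of H3K27ac and 1.94% of H3K4me1, so that 0 calls among 39 or 19 genes is close to the background. DESeq2 called none of these genes either, against 0.0574%, 0.114% and 0.024% of all intervals, although it gave no adjusted p for 38 of the 39 H3K27ac intervals. At an unadjusted p below 0.05, edgeR had 6 genes in H3K4me3, all lower in PR-957, against 7.52% of all intervals (15.4% of the genes). There were 9 in H3K27ac, 7 lower and 2 higher (23.1%, against 8.01%), and 3 in H3K4me1, 1 lower and 2 higher (15.8%, against 16.2%).

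The differences were small. In H3K4me3 the log2 fold changes (PR-957 over DMSO) of the 39 genes lay between -0.28 and 0.14 with standard errors of 0.07 to 0.12, and the 95% interval of each of the 39 stayed within 1.5-fold. In H3K27ac they lay between -0.72 and 0.53 with standard errors of 0.08 to 0.29, and the interval stayed within 2-fold for 35 genes and within 1.5-fold for 21. On counts simulated from these libraries, edgeR recovered 86% of the intervals changed 2-fold in H3K4me3 and 55% in H3K27ac, and 69.5% and 29.5% of those changed 1.5-fold. The changed intervals were drawn at random from all tested intervals, and changes smaller than 1.5-fold were not simulated. Recovery at these promoters, for the sizes fitted there, was therefore not measured. The lack of a call does not show that a gene was unchanged.

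The direction was uneven. A log2 fold change below 0 was found for 31 of 39 genes (79.5%) in H3K4me3 and likewise for 31 of 39 (79.5%) in H3K27ac, while 50.3% and 50.0% of all tested intervals and 53.7% and 49.8% of all protein-coding genes with an interval lay below 0. The median over the genes was -0.07 in H3K4me3, against -0.01 over all protein-coding genes, and -0.12 in H3K27ac, against 0.00. In H3K4me3, both PR-957 libraries lay below both DMSO libraries for 17 of 39 genes (43.6%, against 18.4% of all intervals) and above them for 2 (5.13%, against 18.1%). In H3K27ac this was so for 15 (38.5%, against 18.8%) and for 2 (5.13%, against 18.1%). Genes of one list share the libraries, so these counts describe the list and were not tested. With 2 libraries against 2, an exact two-sided permutation test of a single value cannot go below p = 0.333.

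The same appeared in sums. The 39 H3K27ac intervals together took 0.0533% and 0.0556% of the library total in DMSO and 0.0497% and 0.0511% in PR-957. In H3K4me3 they took 0.0835% and 0.0848% in DMSO and 0.0797% and 0.0821% in PR-957. Both PR-957 libraries lay below both DMSO libraries in each modification. In H3K27ac the nearest values of the treatments were about as far apart as the DMSO replicates, and in H3K4me3 they were closer than the PR-957 replicates. The summed H3K27ac of the 8 myeloid marker genes was lower in PR-957 as well, 271.7 and 269.4 CPM in DMSO and 245.6 and 254.0 in PR-957, and its part in the result was not tested. In a bulk library, fewer cells that carry a modification and less of it per cell cannot be told apart, and TMM scaling sets each library against its own other intervals.

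Single libraries carried part of this. Without the H3K27ac library of DMSO replicate 2, the median log2 fold change in H3K27ac was -0.02, with 26 of 39 genes below 0, and without the H3K4me3 library of PR-957 replicate 1 the median in H3K4me3 was -0.04, with 25 of 39 below 0. The intervals of mitosis genes were also poorer in GC than those of other genes, with a median of 47.7% against 52.7% in H3K4me3 and 49.9% against 54.4% in H3K27ac. After offsets took out each library's dependence on GC, a setting added once the values were known, 31 of 39 genes were below 0 in each modification. In that setting 56.2% of all H3K4me3 and 52.5% of all H3K27ac intervals lay below 0. The medians of the genes were -0.08 and -0.12, against -0.02 and -0.01 over all intervals.

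**Figure D1:**
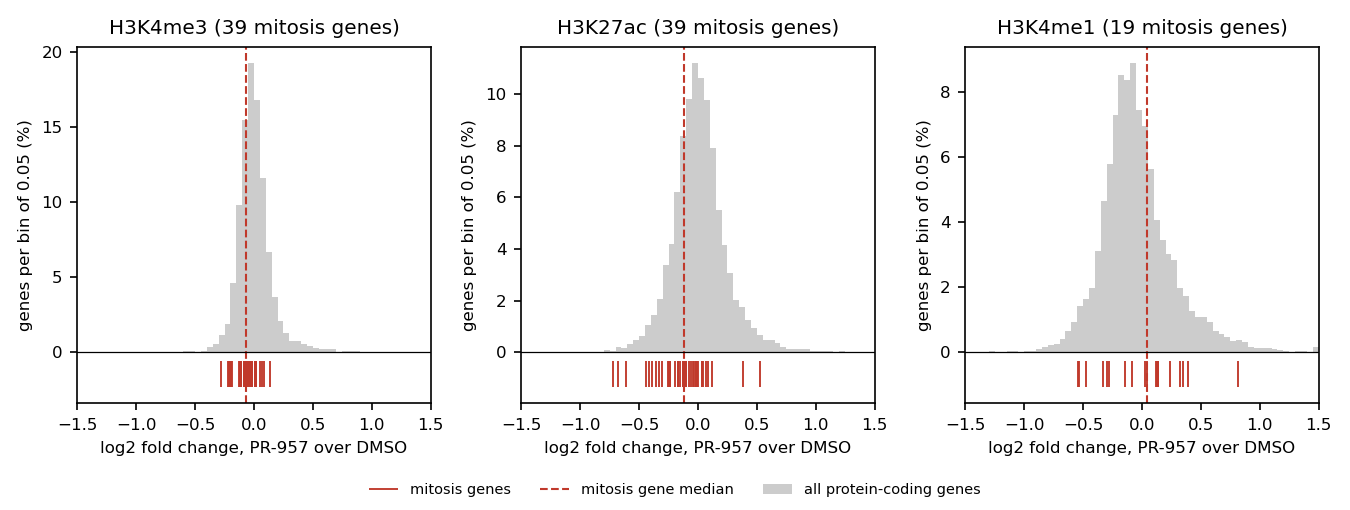
Grey bars give the share (%) of all protein-coding genes per bin of the log2 fold change (PR-957 over DMSO) at their interval, the outermost bins holding everything beyond 1.5, and red ticks give the mitosis genes with a dashed line at their median. The median lies at -0.07 for H3K4me3, at -0.12 for H3K27ac and at 0.04 for H3K4me1.

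Among the mitotic kinases, cyclins and CDC25 phosphatases, 7 of 8 genes were below 0 in each modification. CCNB2 had 17.3 and 18.8 CPM of H3K27ac in DMSO and 13.9 and 13.7 in PR-957, giving a log2 fold change of -0.39 (SE 0.16, adjusted p = 0.445). Its H3K4me3 was 15.03 and 16.19 CPM in DMSO and 13.7 and 13.7 in PR-957, giving a log2 fold change of -0.19 (SE 0.10, adjusted p = 0.659). The groups did not overlap in either modification. AURKA, the centrosomal kinase that matures spindle poles, had 20.7 and 22.4 CPM of H3K27ac in DMSO and 14.9 and 18.9 in PR-957, with a log2 fold change of -0.33 (SE 0.14, adjusted p = 0.489), whereas its H3K4me3 stood at 0.01. Its interval also holds the TSS of CSTF1.

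CDK1, the kinase that drives entry into mitosis, had 13.6 and 11.0 CPM of H3K27ac in DMSO and 8.86 and 11.0 in PR-957, where the nearest values, 10.99 and 10.98, all but touched. Its H3K4me3 groups overlapped, as did both modifications of CCNB1 (cyclin B1) and PLK1, the polo-like kinase, whose H3K27ac log2 fold changes were -0.03 and -0.12. CCNA2, cyclin A2, had 18.3 and 17.3 CPM of H3K27ac against 15.1 and 15.2 in PR-957 (log2 fold change -0.24, adjusted p = 0.760). CDC25B was the exception in H3K27ac, with 12.7 and 10.8 CPM in DMSO and 17.3 and 13.8 in PR-957 (log2 fold change 0.38, SE 0.17, adjusted p = 0.512). That interval holds the TSS of CENPB and a RefSeq start of CDC25B other than the canonical one. At the canonical TSS of CDC25B the 4 values were 10.6, 9.58, 11.5 and 11.5 CPM, with a log2 fold change of 0.18 (adjusted p = 0.885).

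The 5 genes of the spindle assembly checkpoint, which delays anaphase while kinetochores are unattached, all lay below 0 in H3K27ac, 4 of them between 0.00 and -0.15. BUB3, which docks the checkpoint kinase BUB1 to kinetochores, had 18.6 and 18.6 CPM in DMSO and 14.8 and 14.2 in PR-957 (log2 fold change -0.36, SE 0.16, adjusted p = 0.488), and its H3K4me3 groups did not overlap either (25.26 and 24.99 against 24.03 and 23.31). TTK had 26.0 and 25.4 CPM of H3K4me3 in DMSO and 21.7 and 22.8 in PR-957 (log2 fold change -0.21, SE 0.08, adjusted p = 0.433), while its H3K27ac overlapped at -0.06. BUB1 went the other way in H3K4me3, with 14.65 and 14.75 CPM against 15.16 and 16.02 (0.08), and overlapped in H3K27ac. MAD2L1, the gene with the highest H3K4me3 level, hardly differed, with 36.5 and 36.5 CPM of H3K27ac against 35.9 and 36.2. Its log2 fold change was -0.02, yet it counts among the 15 genes with separate, lower H3K27ac, since that count takes no account of size.

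The 4 genes that activate the APC/C or act at sister chromatid separation lay below 0 in H3K4me3, between -0.11 and -0.04. ESPL1 had 5.22 and 6.05 CPM of H3K27ac in DMSO and 3.82 and 3.24 in PR-957, from 38 to 69 counts per library, and a log2 fold change of -0.68 (SE 0.29, adjusted p = 0.480). Its H3K4me3 groups overlapped. CDC20, the activator that the checkpoint inhibits, had 14.2 and 18.0 CPM of H3K27ac against 14.6 and 16.8, and PTTG1 (securin, the inhibitor of separase) 12.03 and 14.01 against 13.08 and 13.37. UBE2C overlapped as well. In H3K4me3, UBE2C (13.5 and 13.7 against 12.1 and 13.2) and PTTG1 were separate and lower. Only ESPL1 among these 4 genes thus had separate groups in H3K27ac.

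In the chromosomal passenger complex, which corrects kinetochore attachments, INCENP, the scaffold, had 18.2 and 18.7 CPM of H3K4me3 in DMSO and 14.7 and 17.4 in PR-957 (log2 fold change -0.20, SE 0.09, adjusted p = 0.583), and -0.08 without PR-957 replicate 1. Its H3K27ac overlapped at -0.01. BIRC5 had 9.82 and 9.90 CPM of H3K4me3 against 7.78 and 9.11 (-0.22, adjusted p = 0.703), and its H3K27ac overlapped. AURKB showed the reverse pairing, overlapping in H3K4me3 (0.01) and separate in H3K27ac, with 5.00 and 6.15 CPM against 4.93 and 4.93 (-0.17, adjusted p = 0.941), and CDCA8 was likewise separate in H3K27ac alone (-0.13). No gene of the complex was separate in both modifications.

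The centromere and kinetochore genes held both the lowest and the highest H3K27ac log2 fold change of the 39. CENPF, a large kinetochore protein of late interphase and mitosis, had 9.84 and 13.1 CPM of H3K27ac in DMSO and 6.24 and 7.46 in PR-957, from 130, 130, 62 and 106 counts. The log2 fold change was -0.72 (SE 0.20, 95% interval -1.12 to -0.32, edgeR's adjusted p = 0.111, unadjusted p = 0.000424). It was -0.92 without DMSO replicate 1 and -0.51 without DMSO replicate 2. Without PR-957 replicate 1 it was -0.61, and without PR-957 replicate 2 it was -0.86. The H3K4me3 of CENPF, 15.3 and 17.3 CPM in DMSO and 13.7 and 13.2 in PR-957, also had the lowest log2 fold change among these genes, -0.28 (SE 0.10, adjusted p = 0.308). The H3K27ac interval is at chr1:214602329-214604970 of hg38 and covers the canonical TSS at chr1:214603195 and the promoter printed above. When all H3K27ac intervals within 2 kb were summed per gene and 12085 genes were fitted, CENPF passed, with a log2 fold change of -0.73 and an adjusted p of 0.0260, as the only mitosis gene, where 91 of the 12085 genes (0.753%) were called. CENPF has 4 listed H3K27ac intervals there. Listed intervals can overlap, so the sum may count the same reads more than once, and the adjustment ran over fewer tests. The part of either in this result was not tested.

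NUF2, of the NDC80 complex that binds microtubules, had 5.45 and 4.03 CPM of H3K27ac in DMSO and 6.64 and 7.18 in PR-957 (log2 fold change 0.53, SE 0.25, adjusted p = 0.554), from 40 to 102 counts, and shares its interval with RGS5. Its H3K4me3 lay on the other side at -0.09. NDC80 had a log2 fold change of -0.11 in H3K27ac and of -0.07 in H3K4me3, where its groups did not overlap. CENPA, the histone variant of centromeres, overlapped in both. CENPE, the kinetochore motor that moves chromosomes to the spindle's equator, was separate in both, with 9.23 and 8.87 CPM of H3K27ac against 8.66 and 8.30 and a log2 fold change of only -0.10.

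Spindle motors and microtubule binding proteins were divided in H3K27ac, with 4 of 8 genes below 0 and 4 above. TPX2, which activates AURKA on the spindle, was the lowest, with 5.30 and 5.85 CPM in DMSO and 3.32 and 4.72 in PR-957 (log2 fold change -0.44, SE 0.28, adjusted p = 0.739). It was separate in H3K4me3 too (19.9 and 19.8 against 17.4 and 19.4). PRC1, which bundles the central spindle, had 22.3 and 24.5 CPM of H3K4me3 against 20.5 and 20.5 (-0.19, SE 0.08, adjusted p = 0.571, and -0.12 without DMSO replicate 2) and overlapped in H3K27ac at 0.03. KIF11, the bipolar spindle motor, and KIF23, of the central spindle, were the 2 genes above 0 in both modifications, with H3K27ac log2 fold changes of 0.09 and 0.12. At the canonical TSS of KIF11 H3K27ac was 17.8 and 19.6 CPM against 16.9 and 19.7 (-0.01).

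Both cytokinesis genes lay below 0 in H3K27ac without overlap. ANLN, anillin of the cleavage furrow, had 16.2 and 14.3 CPM in DMSO and 13.7 and 9.64 in PR-957 (log2 fold change -0.42, SE 0.17, adjusted p = 0.455), at an interval shared with MATCAP2, and -0.16 when PR-957 replicate 2 was left out. ECT2, the RhoA activator of the furrow, had 13.02 and 13.11 CPM against 10.3 and 11.7 (-0.24). In H3K4me3, ANLN stood at 0.05 and ECT2 at -0.21.

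MKI67, the Ki-67 protein that coats mitotic chromosomes and marks proliferating cells, had 7.87 and 9.68 CPM of H3K27ac in DMSO and 5.64 and 5.77 in PR-957, from 104, 96, 56 and 82 counts. Its log2 fold change was -0.61 (SE 0.23, adjusted p = 0.364). The H3K4me3 groups did not overlap either (21.1 and 20.5 against 18.0 and 20.3, -0.12). TOP2A, the topoisomerase that untangles chromosomes, was separate in the other direction in H3K4me3 (10.6 and 10.2 against 11.8 and 11.2, log2 fold change 0.14, adjusted p = 0.852) and overlapped in H3K27ac at -0.08. FOXM1, the transcription factor of late cell cycle genes, had 25.6 and 30.6 CPM of H3K27ac against 23.8 and 25.6 (-0.17, adjusted p = 0.787), where the middle values, 25.58 and 25.61, left a narrow overlap.

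**Figure D2:**
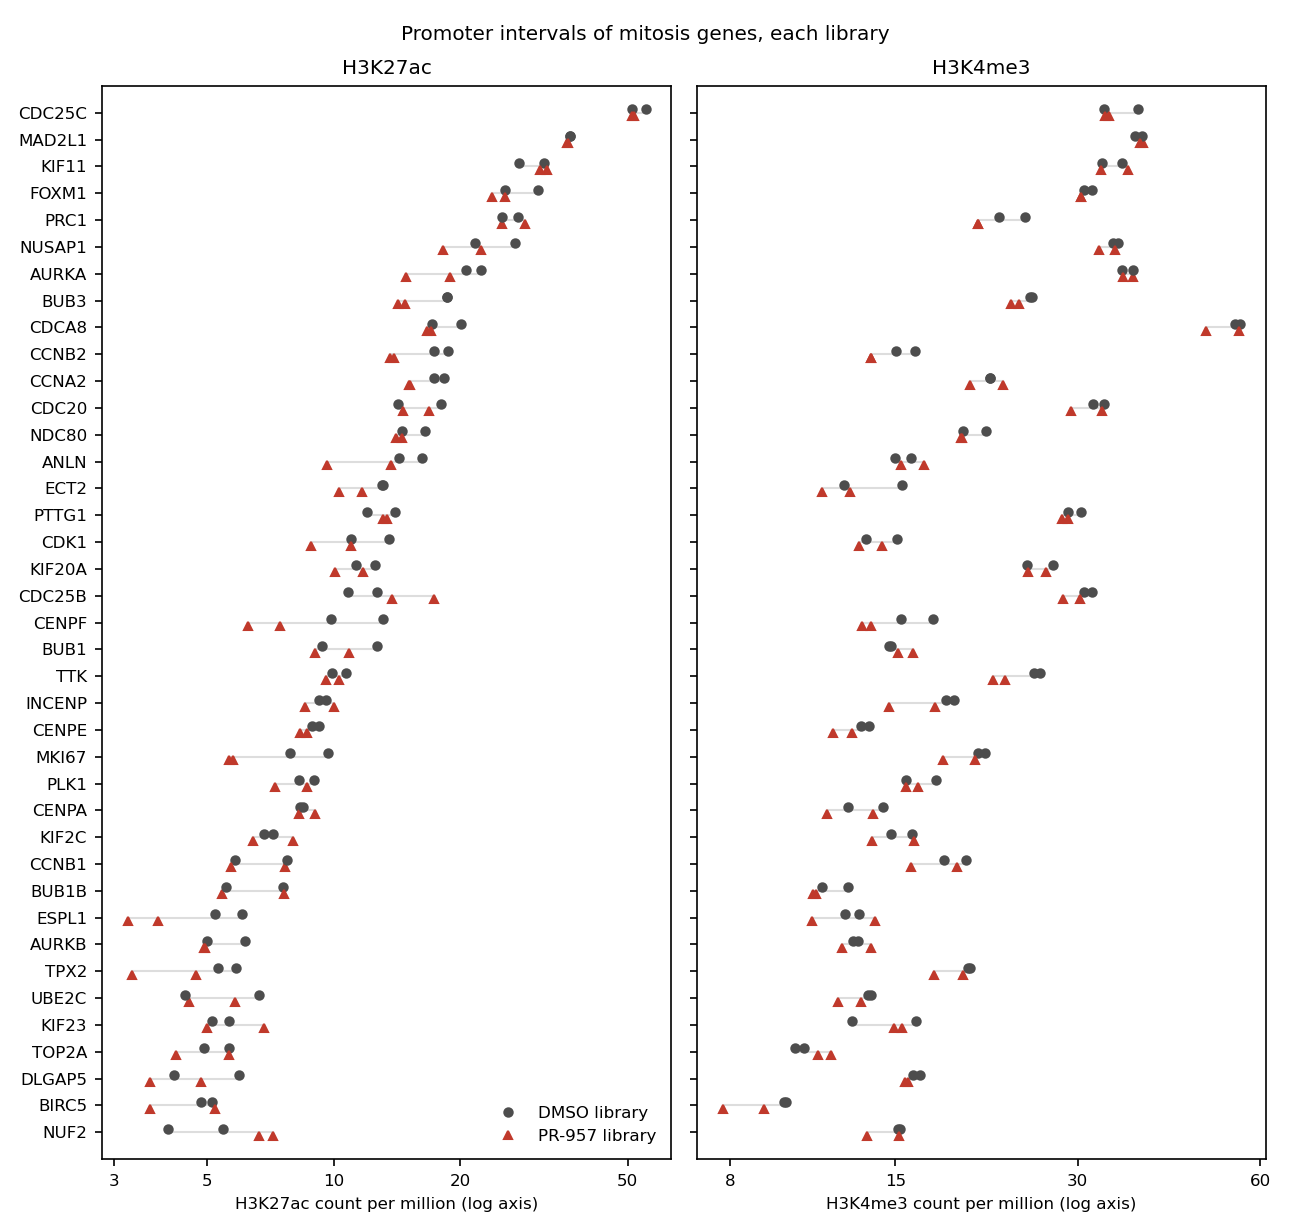
Each row is a mitosis gene, ordered by its H3K27ac in DMSO, and each symbol is the CPM of 1 library on a log axis, H3K27ac on the left and H3K4me3 on the right, DMSO as grey circles and PR-957 as red triangles. The PR-957 symbols lie to the left of both DMSO symbols for 15 genes in H3K27ac and for 17 in H3K4me3, and to the right for 2 in each.

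**Figure D3:**
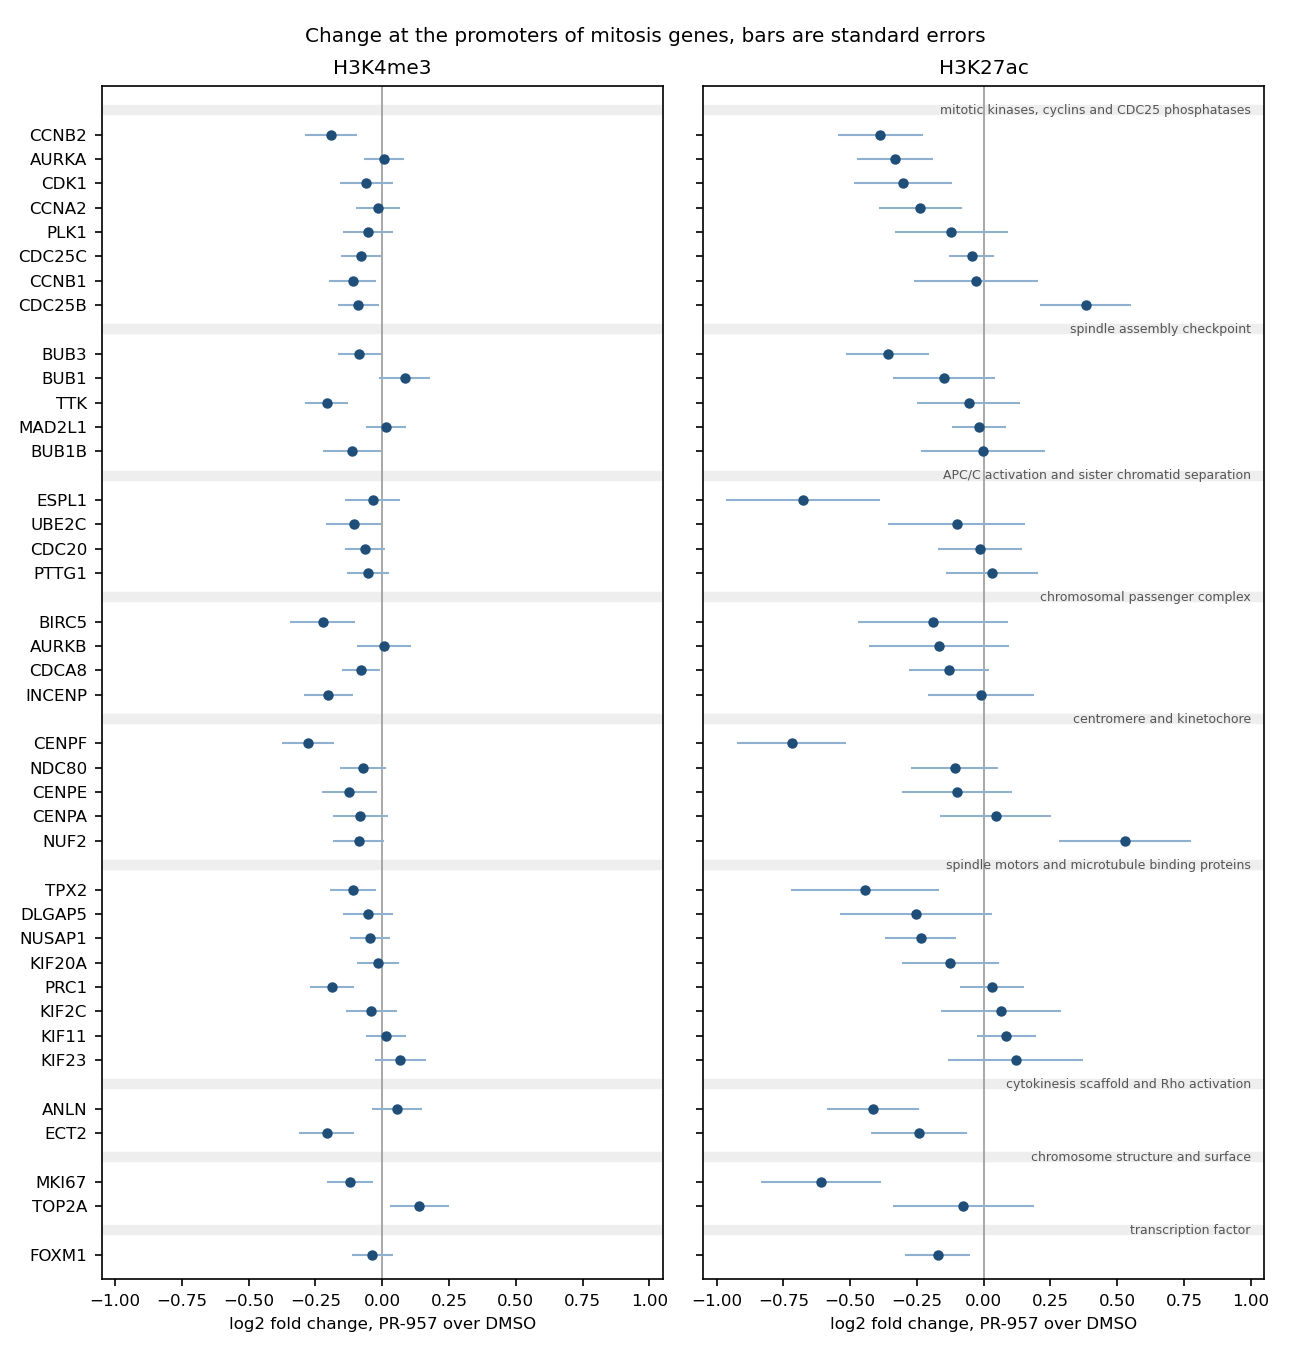
Points are log2 fold changes (PR-957 over DMSO) of the 39 genes in H3K4me3 and H3K27ac, grouped by role as labelled on the right, with bars of 1 standard error derived from edgeR's test. CENPF, ESPL1 and MKI67 lie farthest to the left in H3K27ac, and CDC25B and NUF2 to the right.

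Read across the 2 modifications, 25 of 39 genes (64.1%) were below 0 in both, against 30.9% of 11355 protein-coding genes, 2 were above 0 in both, and 6 were below 0 in each modification alone. With most genes below 0 in each modification, a large share below 0 in both follows from those counts. It is no separate sign of agreement between the modifications. The genes with separate, lower PR-957 values in both were CCNB2, BUB3, CENPE, CENPF, TPX2 and MKI67. The sizes did not track each other. Across the 39 genes the log2 fold changes of H3K4me3 and H3K27ac had a Pearson correlation of 0.15 and a Spearman correlation of 0.05, and over all protein-coding genes Pearson's was 0.16. Leaving out the genes whose H3K27ac interval holds another gene's TSS, 23 of 27 were below 0 with a median of -0.12, and the other 12 had 8 below 0 with a median of -0.12.

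H3K4me1 was sparse at these genes. Of 40 genes, 19 had an interval, 13 of which did not span the canonical TSS, and the median level was 1.01 CPM per kb, against 1.32 over 8701 protein-coding genes. KIF20A, a motor of the central spindle, CDC20 and CDC25B were highest, at 2.12, 1.83 and 1.66, and KIF11, CDCA8 and BUB3 lowest, at 0.42, 0.54 and 0.58. Log2 fold changes were below 0 for 8 of 19 genes (42.1%, against 62.1% of protein-coding genes) and lay between -0.54 and 0.82, with a median of 0.04 against -0.08 over protein-coding genes. Both PR-957 libraries lay below both DMSO libraries for 4 of 19 (21.1%, against 23.2% of all intervals and 32.5% of protein-coding genes) and above for 2 (10.5%, against 23.5%).

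CENPA had 5.83 and 6.94 CPM of H3K4me1 in DMSO and 3.92 and 4.78 in PR-957, with a log2 fold change of -0.53 (SE 0.19, adjusted p = 0.115). With a window of 5 kb the CENPA value was -0.05. MKI67 had 2.37 and 2.55 against 1.80 and 1.74 (-0.48, adjusted p = 0.487), and PLK1 2.98 and 3.22 against 2.76 and 2.22 (-0.33, adjusted p = 0.583, and -0.16 without PR-957 replicate 2). These 3 genes were separate and lower, as was CDC20. CDC25B had 8.98 and 9.53 CPM in DMSO and 12.2 and 11.0 in PR-957 (0.32, SE 0.14, adjusted p = 0.221), at an interval 7016 bp from its canonical TSS, and KIF11 had 0.91 and 1.97 against 2.57 and 2.44 (0.82, SE 0.35, adjusted p = 0.211), at an interval 19940 bp away. The KIF11 value rests on single DMSO libraries, being 0.34 without replicate 1 and 1.44 without replicate 2. At the canonical TSS the log2 fold changes were -0.02 for CDC25B and 0.08 for KIF11.

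None of the 40 genes had an H3K27me3 interval within 2 kb of a TSS, whereas 2314 of the 12790 protein-coding genes with an H3K4me3 interval (18.1%) also had one of H3K27me3. From the canonical TSS the median distance to the nearest H3K27me3 interval was 93210 bp, and the greatest 1291388 bp, for CENPE. Only BUB3 had one within 10 kb, ending 2070 bp upstream, and BIRC5 was next at 13517 bp.

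The H3K27me3 interval beside BUB3 was singled out after its values were seen, since only the wider 5 kb window reaches it. It is a domain of 23053 bp at chr10:123129279-123152332 of hg38 that holds the TSS of HMX3 and HMX2, homeobox genes of the ear and nervous system, and no TSS of BUB3. Its CPM was 504.7 and 504.5 in DMSO and 376.0 and 380.9 in PR-957, so that the groups were far apart compared with the spread between replicates. The interval fell, with a log2 fold change of -0.41 (SE 0.05, edgeR's adjusted p = 2.8e-12), where 5.92% of all tested H3K27me3 intervals were called, and 5.09% called and lower. DESeq2, which called 4.02%, gave -0.41 as well (adjusted p = 2.7e-13). With library sizes alone, which shift the median of all H3K27me3 intervals to 0.18, the log2 fold change was -0.25 (adjusted p = 6.5e-08), and with cyclic loess offsets it was -0.23 (adjusted p = 2.2e-07). Without each library in turn it lay between -0.43 and -0.42. Among the marker genes, the H3K27me3 domains at PAX5, NKX2-1 and SOX2 passed too, and fell by 0.34, 0.33 and 0.26 on the log2 scale. The other marker genes with an H3K27me3 interval did not pass, and some lay on the other side: of 5 non-blood genes 3 were above 0 (median of the list 0.37), as were both erythroid genes (median 0.46), while all 3 B cell genes and the T cell gene were below 0. The domain does not overlap the H3K4me3 or H3K27ac interval of BUB3.

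The wider machinery was read from 5 lists of 110 genes, written from general knowledge but with earlier results of these data known. In H3K4me3, H3K27ac and H3K27me3 none of their genes passed, and in H3K4me1 1 did. H3K4me1 was tested for 9 APC/C, 8 cohesin and condensin, 12 kinetochore, 13 spindle and centrosome, and 14 DREAM and E2F genes. Over all H3K4me1 intervals 1.94% were called, and 1.24% were called and higher, so 1 call is close to the background. The spindle and centrosome list, 22 of whose 24 genes had an H3K4me3 interval, was below 0 for 19 of them (86.4%), with a median of -0.07, but for 13 of 22 in H3K27ac, with a median of -0.03. The kinetochore list was below 0 for 16 of 27 in H3K4me3 (median -0.04) and 19 of 26 in H3K27ac (median -0.07). Subunits and cofactors of the APC/C were below 0 for 10 of 17 and 11 of 17, cohesin and condensin for 14 of 20 and 11 of 20, and the DREAM and E2F regulators for 12 of 20 and 13 of 20, with medians between -0.04 and 0.00. At an unadjusted p below 0.05, where 7.52% of all H3K4me3 and 8.01% of all H3K27ac intervals lay, the APC/C list had 1 of 17 genes in H3K4me3 and 2 of 17 in H3K27ac, cohesin and condensin 3 and 5 of 20, the kinetochore list 2 of 27 and 4 of 26, the spindle and centrosome list 1 and 1 of 22, and the DREAM and E2F list 1 and 2 of 20.

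The gene that passed was RAD21, the cohesin subunit that separase cleaves. Its H3K4me1 was 3.73 and 3.60 CPM in DMSO and 7.19 and 5.18 in PR-957, with a log2 fold change of 0.73 (SE 0.20, edgeR's adjusted p = 0.0288). With the DESeq2 test its adjusted p was 0.520. In H3K27me3, ANAPC2, an APC/C subunit, was the only gene of the 5 lists with an interval, and it did not pass (log2 fold change 0.09, adjusted p = 0.317).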

How the data were processed

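Cut&Tag was measured in 16 libraries of MOLM-13 cells, 2 per treatment for each of 4 modifications. The deposited values are counts of reads per interval, not normalized, in 1 table per modification made by the authors, with coordinates on hg38 as the files list them. The submitters' processing notes name Trimmomatic 0.39, Bowtie2 2.2.5, Picard 2.27.1, SAMtools 1.7, SEACR 1.3 and deepTools 3.5.1. Which caller gave the intervals, how reads were counted and whether duplicates were kept are not given in the sources used here. Listed intervals can overlap each other and share reads.

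Each table was fitted whole with edgeR 4.0.16 (R 4.3.3, limma 3.58.1) by the quasi-likelihood test, PR-957 against DMSO, with TMM factors, filterByExpr at a minimum count of 10 and Benjamini-Hochberg adjustment over all tested intervals at 0.05. Adjusted p without another name is from this test. Genes were assigned through GENCODE release 44 and summarised in Python 3.11.15. The members and gene lists were chosen with earlier results of these data known, so no list was tested as a set. Intervals that overlap a TSS of more than 1 gene were kept for each. The precision follows from the counts given above and covers counting error and the spread of 2 libraries. The procedure was tested on simulated data, with 200 intervals changed at each fold.

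Genes were named if they passed the test, if they were among the 5 smallest p-values with separate groups per modification, if their level was among the 3 highest or 3 lowest, if they are the best known of a role, or if they lacked an interval. CCNA2, BUB3, CDC25B, CDC25C, TPX2, ECT2, CENPE, NDC80, NUF2, KIF23 and PTTG1 were also described where values had been seen. The replicate numbers were not used to pair the libraries in the main fit. Deviations of equally numbered libraries from their treatment means correlated at 0.17 in H3K4me3 and between -0.01 and 0.01 elsewhere, so some pairing in H3K4me3 is possible. Alternatives were other scalings, DESeq2 1.42.0, other filters, a replicate block, other windows and interval choices, leaving out each library, and a correction for GC content. The IgG samples were not analysed here.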

Additional observations from a re-analysis of the deposited data

How the results depend on the processing

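The count of mitosis genes called by edgeR was 0 in H3K4me3, H3K27ac and H3K4me1 under all alternatives run, with 1 exception: with H3K27ac counts summed over the window, 1 gene passed (CENPF). Such a sum may count reads of overlapping intervals more than once. In H3K27me3 the window of 5 kb gave 1 gene (BUB3), and with no interval in the 2 kb window no median could be given. The median in H3K4me3 lay between -0.11 and -0.04 and that in H3K27ac between -0.18 and -0.10, except that leaving out single libraries gave a range of -0.18 to -0.023 in H3K27ac, the latter without DMSO replicate 2. The H3K4me1 median, 0.042, had no stable sign. It was 0.089 with library sizes alone, 0.011 with cyclic loess offsets, 0.068 at a mean count of at least 50, 0.13 with the 5 kb window, 0.16 with summed counts, -0.0027 with the interval of highest count per kb, -0.051 at the canonical TSS and -0.053 with the GC correction, and lay between -0.044 and 0.033 when each library was left out. CDC25B in H3K4me1 reversed, to -0.014 with the interval of highest count per kb and -0.018 at the canonical TSS, where another interval stands for the gene. The count below 0 ranged over 25 to 33 genes in H3K4me3, 26 to 32 in H3K27ac and 6 to 12 in H3K4me1. With the replicate block, 0 genes were called and the medians were -0.07, -0.12 and 0.03, and the block changed no call among the genes named. Over all intervals, edgeR called 134 in H3K4me3, 177 in H3K27ac and 2097 in H3K4me1, and DESeq2 called 34, 85 and 26. Over the alternatives that fit single intervals, the lowest and highest counts were 28 (without DMSO replicate 2) and 177 in H3K4me3, 23 (without PR-957 replicate 2) and 195 in H3K27ac, 26 and 2367 in H3K4me1, where the GC correction gave 959, and 1168 (without DMSO replicate 2) and 2451 in H3K27me3, against 1882 as reported. The GC correction and the settings on the interval beside BUB3 were chosen after seeing the data, and the cause of these differences was not tested. In H3K27ac the mean count per library at a gene was 53.2 to 615.8. In the simulation over all H3K27ac intervals, 29.5% of those changed 1.5-fold were recovered, and smaller changes were not simulated.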
